A study of Mus musculus with 10 samples.

Results

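Dendritic cell lineage transcription factors are the nuclear proteins that decide which kind of dendritic cell a bone marrow progenitor becomes. The members described here are the 10 listed factors outside the interferon regulatory factor family, Batf3, Batf, Id2, Nfil3, Zbtb46, Zeb2, Klf4, Bcl6, Tcf4 and Spi1, which make up 10 of the 53379 genes in the files. All 10 were found by identifier and all 10 passed the filter on low counts, with between 43 and 9687 counts per library. RNA sequencing was done on dendritic cells sorted from the spleens of individual C57BL/6 mice aged 16 weeks. The 4 groups were libraries labelled CD11b from Atg16l1 -/- mice (CD11b KO, n = 2), CD11b from Atg16l1 +/+ mice (CD11b WT, n = 3), CD8 from Atg16l1 -/- mice (CD8 KO, n = 2) and CD8 from Atg16l1 +/+ mice (CD8 WT, n = 3). All groups shared the gate for cells high in MHC class II and CD11c. Per the labels, the CD11b gate took CD11b+ CD8- cells and the CD8 gate took CD11b- CD8+ cells. Atg16l1 encodes a protein needed to attach LC3 to the growing autophagosome, and the labels do not say in which cells it was deleted. The labels also do not say whether a CD11b library and a CD8 library with the same number came from 1 mouse.

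Conventional dendritic cells of the spleen fall into the CD8+ lineage (cDC1), which takes up dying cells and cross-presents their antigens, and the CD11b+ lineage (cDC2), which presents mainly to CD4 T cells. Their fates are set by opposed circuits: in mouse progenitors Nfil3, Id2 and Batf3 direct cells towards cDC1, Zeb2 and the E protein Tcf4 favour other fates including the plasmacytoid dendritic cell, and Nfil3 represses Zeb2, which in turn represses Id2. Id2 is a helix-loop-helix protein without a DNA-binding region that traps E proteins, Zeb2 is a zinc finger repressor that binds E-box sites, and Klf4 is a zinc finger factor of monocytes and of some cDC2.

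The promoters of the 4 members whose levels are described at most length (Id2, Batf3, Zeb2 and Klf4) are shown because E proteins, Id2 and Zeb2 all act through the E-box. The sequences run 5′ to 3′ on the coding strand, from 250 bases before to 50 bases after a RefSeq start on GRCm38.p6, and capitals mark each match to the E-box letters CANNTG. The Id2 window is chr12:25096043-25096342 on the minus strand, the Batf3 window chr1:191098164-191098463 on the plus strand, the Zeb2 window chr2:45117393-45117692 on the minus strand and the Klf4 window chr4:55532426-55532725 on the minus strand.
Id2: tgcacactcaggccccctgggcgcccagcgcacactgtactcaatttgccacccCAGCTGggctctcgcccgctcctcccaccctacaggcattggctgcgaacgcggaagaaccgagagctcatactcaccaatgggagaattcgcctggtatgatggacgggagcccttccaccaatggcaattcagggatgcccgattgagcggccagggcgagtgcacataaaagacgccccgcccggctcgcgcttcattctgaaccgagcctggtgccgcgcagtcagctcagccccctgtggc
Batf3: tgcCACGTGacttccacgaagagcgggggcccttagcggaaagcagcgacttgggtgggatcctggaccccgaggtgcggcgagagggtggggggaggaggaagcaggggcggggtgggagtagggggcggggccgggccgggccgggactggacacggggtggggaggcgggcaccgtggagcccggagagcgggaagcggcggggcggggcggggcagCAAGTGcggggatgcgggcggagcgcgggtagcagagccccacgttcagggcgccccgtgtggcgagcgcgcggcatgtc
Zeb2: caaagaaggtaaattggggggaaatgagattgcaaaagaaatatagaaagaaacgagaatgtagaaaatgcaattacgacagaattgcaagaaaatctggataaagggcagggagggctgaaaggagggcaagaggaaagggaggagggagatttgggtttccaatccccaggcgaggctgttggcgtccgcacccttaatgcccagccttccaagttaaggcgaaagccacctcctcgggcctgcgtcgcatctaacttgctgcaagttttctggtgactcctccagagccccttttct
Klf4: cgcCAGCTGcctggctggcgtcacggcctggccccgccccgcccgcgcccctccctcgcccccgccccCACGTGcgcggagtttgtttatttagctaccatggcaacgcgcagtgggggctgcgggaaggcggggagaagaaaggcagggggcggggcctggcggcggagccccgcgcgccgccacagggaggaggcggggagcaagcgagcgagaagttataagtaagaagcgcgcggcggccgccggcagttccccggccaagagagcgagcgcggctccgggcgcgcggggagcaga
The letters CANNTG occur once in the Id2 window, in 2 places in the Batf3 window, in 2 places in the Klf4 window and not in the Zeb2 window. Across 8 members searched, 7 windows held the letters, against 72.3% of all 32851 promoter windows of the same length. The narrower letters CACCTG, bound by Zeb2 as background knowledge, were found in 1 of the 8 windows, that of Zbtb46, which lies 35038 bases from the annotated start inside the gene, against 20.2% of all windows, and the PU.1 core GAGGAA was found in 3 of the 8 (Batf3, Zeb2 and Bcl6), against 28.3%. The AP-1 letters TGANTCA were found in 1 window (again that of Zbtb46), against 7.81%, and the Klf core CACCC in 5, against 57.5%. No window of the 8 held the ETS-IRF composite, the letters TTACNTAA (the Nfil3 site) or TTCCTNGAA (a Bcl6 site), which 2.72%, 2.32% and 1.59% of all windows held. Both strands were searched, the E-box letters include CACCTG, and a match is a description of letters only.

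The libraries held 9467704 to 13768884 gene counts each. Atg16l1 had 3.03 and 1.83 CPM (gene counts scaled to the size of each library by TMM) in CD11b KO 1 and 2 and 1.73 and 3.31 CPM in CD8 KO 1 and 2, against 13.3 to 32.7 CPM in the 6 WT libraries. The subset labels ran against the markers in all 10 libraries. The summed level of 10 cDC1 markers was 10660 to 11880 CPM in libraries labelled CD11b, against 2596 to 2979 CPM in libraries labelled CD8, and that of 10 cDC2 markers was 63.7 to 81.7 CPM against 1017 to 1157 CPM. Most of the cDC1 sum at label CD8 was Wdfy4, at 2257 to 2629 CPM, against 5375 to 5905 CPM at label CD11b. The median log2 fold change of the 10 cDC1 markers, label CD11b over label CD8, was 4.11 in KO and 3.91 in WT. Cd8a itself had 448 to 578 CPM in libraries labelled CD11b, against 0.905 to 5.87 CPM in libraries labelled CD8, and Itgam, which encodes CD11b, had 1.58 to 2.73 CPM against 76.1 to 104 CPM. Groups are therefore named by their labels throughout, and a direction between the labels is the reverse of the one their names would give. Among markers of other cells, the B cell sum stood highest in CD8 KO 2, at 2746 CPM against at most 1134 CPM elsewhere. In bulk samples like these, fewer cells of a type and less RNA per cell cannot be told apart.

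**Figure D1:**
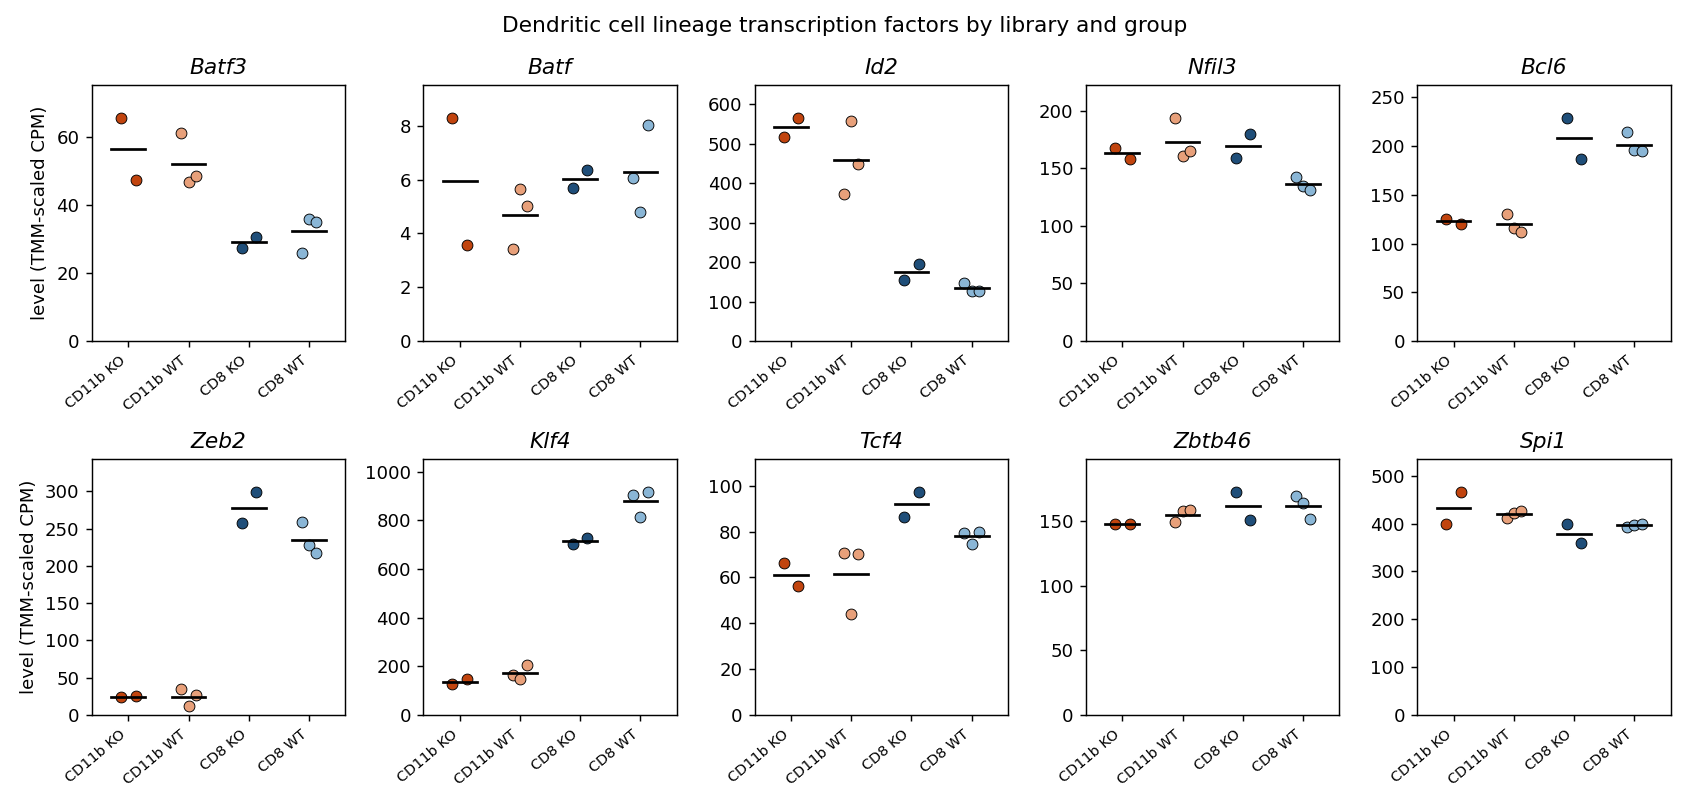
Level of each of the 10 factors in every library (points, TMM-scaled CPM, linear axis from 0) by group, with the group mean as a bar. Id2 and Batf3 are higher in all 5 libraries labelled CD11b, Zeb2, Klf4, Bcl6 and Tcf4 are higher in all 5 labelled CD8, and Zbtb46 and Spi1 lie at about the same level in all 4 groups.

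Between the subset labels, 6 of the 10 factors passed the test in KO and 6 in WT. In KO, Batf3 and Id2 were higher and Zeb2, Klf4, Bcl6 and Tcf4 lower in libraries labelled CD11b than in those labelled CD8; the background there was 10.3% of the 14528 genes tested called higher and 12.5% called lower, 22.8% in all. In WT, Batf3, Id2 and Nfil3 were higher and Zeb2, Klf4 and Bcl6 lower, against 13.8% of all genes called higher and 15.7% called lower, 29.5% in all. The 2 label groups did not overlap for 7 of the 10 factors in KO, against 58.7% of all genes, and for 8 of the 10 in WT, against 41.5%. The median absolute log2 fold change of the 10 was 0.67 in KO and 0.56 in WT, beside 0.53 and 0.52 over all genes.

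**Figure D2:**
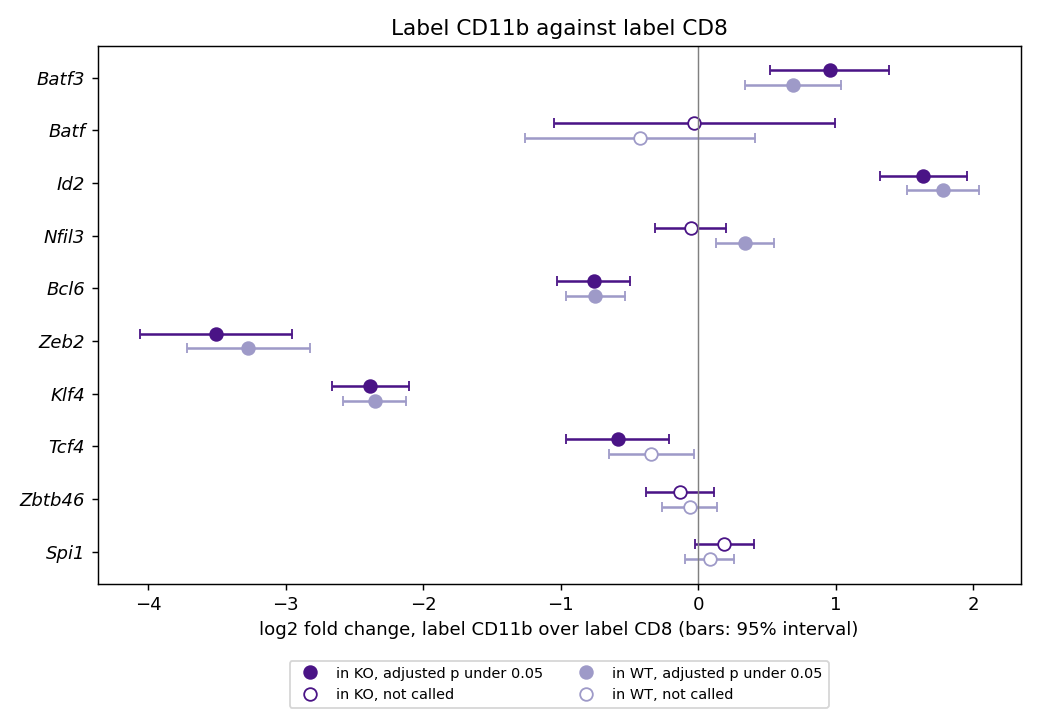
Log2 fold change of label CD11b over label CD8 for each factor, in KO (dark) and WT (light), with 95% intervals; filled points have an adjusted p under 0.05. Zeb2 and Klf4 lie farthest to the left and Id2 farthest to the right in both genotypes.

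Id2 (ENSMUSG00000020644, chr12:25093799-25097140, minus strand of GRCm38) had the largest positive difference of the 10. Its level was 518 and 564 CPM in CD11b KO 1 and 2 and 371, 559 and 450 CPM in CD11b WT 1 to 3, against 154 and 194 CPM in CD8 KO 1 and 2 and 148, 127 and 126 CPM in CD8 WT 1 to 3. Every library labelled CD11b lay above every library labelled CD8. The difference was 3.12-fold in KO (log2 fold change 1.64, SE 0.15, adjusted p = 1.28e-08) and 3.44-fold in WT (log2 fold change 1.78, SE 0.13, adjusted p = 6.51e-11; edgeR quasi-likelihood test, Benjamini-Hochberg adjustment).

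Batf3, the AP-1 family factor that keeps Irf8 switched on in committed cDC1, moved the same way with a smaller difference. The gene (ENSMUSG00000026630, chr1:191097847-191108945, plus strand) had 65.5 and 47.2 CPM in CD11b KO 1 and 2 and 61.1, 46.8 and 48.6 CPM in CD11b WT 1 to 3, against 27.4 and 30.6 CPM in CD8 KO 1 and 2 and 25.8, 35.9 and 35.1 CPM in CD8 WT 1 to 3. The lowest library labelled CD11b, at 46.8 CPM, stood above the highest labelled CD8, at 35.9 CPM. The log2 fold change was 0.96 in KO (SE 0.21, adjusted p = 0.00121) and 0.69 in WT (SE 0.17, adjusted p = 0.0027). The libraries with cDC2 markers thus held a large share of the Batf3 RNA seen in those with cDC1 markers: label CD11b was 1.94-fold above label CD8 in KO and 1.62-fold above it in WT.

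Batf, a close relative that can stand in for Batf3 in mice under inflammation, was the least abundant factor by counts. The gene (ENSMUSG00000034266, chr12:85686669-85709087, plus strand) had 43 to 85 counts in each of the 10 libraries. Its level was 8.28 and 3.58 CPM in CD11b KO and 3.42, 5.66 and 5.02 CPM in CD11b WT. It was 5.68 and 6.36 CPM in CD8 KO and 6.05, 4.798 and 8.04 CPM in CD8 WT. For Batf the labels overlapped in each genotype, and KO and WT overlapped at each label. Its intervals were the widest of the 10: the log2 fold change between labels was −0.03 in KO (95% interval −1.05 to 0.99) and −0.42 in WT (−1.26 to 0.42). A log2 difference of −1 lies inside both intervals, and the 2 CD11b KO libraries themselves lay far apart.

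Nfil3, the basic leucine zipper repressor at the head of the cDC1 pathway, had nearly the same level in 3 of the 4 groups. The gene (ENSMUSG00000056749, chr13:52967209-52981073, minus strand) had 167 and 158 CPM in CD11b KO, 193, 160 and 165 CPM in CD11b WT and 159 and 180 CPM in CD8 KO, while CD8 WT had 142, 135 and 131 CPM. In WT the labels did not overlap and the difference passed the test, at a log2 fold change of 0.34 (SE 0.10, adjusted p = 0.012), though not without CD11b WT 1, the library with the highest level (0.26, adjusted p = 0.0845). In KO the labels overlapped and the log2 fold change was −0.05 (95% interval −0.31 to 0.20, adjusted p = 0.829).

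Zeb2 had the largest difference of the 10 and ran opposite to Id2. The gene (ENSMUSG00000026872, chr2:44983632-45117395, minus strand) had 23.5 and 25.2 CPM in CD11b KO 1 and 2 and 34.1, 12.0 and 26.9 CPM in CD11b WT 1 to 3, against 257 and 299 CPM in CD8 KO 1 and 2 and 259, 228 and 218 CPM in CD8 WT 1 to 3. The gap between the labels was far wider than the spread within either. Zeb2 was 11.4-fold lower in libraries labelled CD11b in KO (log2 fold change −3.51, SE 0.27, adjusted p = 4.55e-10) and 9.67-fold lower in WT (log2 fold change −3.27, SE 0.22, adjusted p = 2.14e-11). The antisense gene Zeb2os overlaps Zeb2 on the other strand; it held 195 counts over the 10 libraries, beside 15199 for Zeb2, and the counts used were stranded.

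Because Id2 and Zeb2 ran in opposite directions, their ratio separated the labels more widely than either gene. Id2 CPM divided by Zeb2 CPM was 22.0 and 22.4 in CD11b KO 1 and 2 and 10.9, 46.6 and 16.7 in CD11b WT 1 to 3, against 0.597 and 0.649 in CD8 KO 1 and 2 and 0.572, 0.559 and 0.579 in CD8 WT 1 to 3. The ratio was within a narrow band in all 5 libraries labelled CD8 and spread widely in CD11b WT. There the genes ran in opposite order: Zeb2 had 34.1, 12.0 and 26.9 CPM and Id2 371, 559 and 450 CPM in CD11b WT 1 to 3. The ratio compares 1 pair of genes across libraries and not their levels, since Zeb2 is the longer gene.

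Klf4 was the second of the 2 factors with a difference past 4-fold. The gene (ENSMUSG00000003032, chr4:55527143-55532466, minus strand) had 125 and 149 CPM in CD11b KO 1 and 2 and 163, 147 and 207 CPM in CD11b WT 1 to 3, against 702 and 729 CPM in CD8 KO 1 and 2 and 905, 814 and 917 CPM in CD8 WT 1 to 3. The labels were separated in both genotypes, and within each label the KO libraries lay towards the lower end. Klf4 was 5.22-fold lower at label CD11b in KO (log2 fold change −2.38, SE 0.14, adjusted p = 4.65e-12) and 5.11-fold lower in WT (log2 fold change −2.35, SE 0.11, adjusted p = 6.86e-14). Klf4 thus had the smallest adjusted p of the 10 in both genotypes, and Zeb2 the largest fold.

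Bcl6, a POZ zinc finger repressor best known from germinal centre B cells and needed for cDC1 in mice, was lower at label CD11b. The gene (ENSMUSG00000022508, chr16:23965052-23988852, minus strand) had 125 and 120 CPM in CD11b KO and 131, 116 and 112 CPM in CD11b WT, against 228 and 187 CPM in CD8 KO and 214, 196 and 194 CPM in CD8 WT. The log2 fold change was −0.76 in KO (SE 0.13, adjusted p = 6.46e-05) and −0.75 in WT (SE 0.10, adjusted p = 3.72e-06). The B cell markers, of which 9 of 10 were lower at label CD11b in KO and 7 of 10 in WT, summed to 281 to 619 CPM at label CD11b and 565 to 2746 CPM at label CD8. At label CD8 the B cell sum was 1019 and 2746 CPM in CD8 KO 1 and 2. It was 1134, 744 and 565 CPM in CD8 WT 1 to 3. Bcl6 in the same libraries, in that order, had 228, 187, 214, 196 and 194 CPM. The part of B cells in the Bcl6 difference was not tested.

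Tcf4, the E protein that specifies plasmacytoid dendritic cells, had a small difference in the same direction as Zeb2. The gene (ENSMUSG00000053477, on chromosome 18) had 66.4 and 56.2 CPM in CD11b KO and 70.7, 44.1 and 70.2 CPM in CD11b WT, against 86.5 and 97.3 CPM in CD8 KO and 79.4, 74.6 and 80.0 CPM in CD8 WT. Every library labelled CD11b lay below every library labelled CD8. The log2 fold change passed the test in KO, at −0.59 (SE 0.18, adjusted p = 0.0211), and not in WT, at −0.34 (SE 0.15, adjusted p = 0.0931). Both results turned on single libraries: the KO call was lost without CD11b KO 2 (−0.47, adjusted p = 0.181) or CD8 KO 2 (−0.49, adjusted p = 0.159), and in WT a call was gained without CD11b WT 1 (−0.45, adjusted p = 0.0424). With the replicate number within a genotype as a block the WT difference passed the test as well (−0.37, adjusted p = 0.0239).

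Markers of plasmacytoid dendritic cells, which also express Zeb2 and Tcf4, were measured beside them. Siglech, a surface lectin of those cells, had 24.0 and 23.2 CPM in CD11b KO 1 and 2 and 33.6, 13.1 and 22.3 CPM in CD11b WT 1 to 3, against 0.577 to 2.37 CPM at label CD8. Within the libraries labelled CD11b, Zeb2, Tcf4 and, of the 9 markers, Siglech, Spib and Ly6d were highest in CD11b WT 1 and lowest in CD11b WT 2, an order picked out after the values were seen. Bst2, Ccr9, Pacsin1, Klk1, Cox6a2 and Runx2 did not have that order. The chemokine receptor Ccr9 had 25.3 and 23.7 CPM in CD11b KO and 30.5, 25.0 and 35.8 CPM in CD11b WT, against 3.05 to 7.49 CPM at label CD8. Pacsin1 had 24.5 and 29.0 CPM in CD11b KO and 23.2, 22.3 and 20.5 CPM in CD11b WT, and was highest in CD11b KO 2. Over all 9 plasmacytoid markers the sum was 126 to 178 CPM at label CD11b and 134 to 188 CPM at label CD8. In KO 3 of the 9 were higher and 2 lower at label CD11b, and in WT 4 were higher and 2 lower, and Klk1 was at 0 in all 5 libraries labelled CD8. The part of these markers in the levels of Zeb2 and Tcf4 was not tested. At label CD8, where Zeb2 and Tcf4 were higher, the markers did not all run the same way. Siglech was near 0 there. Spib and Runx2, the 2 markers called lower at label CD11b in both genotypes, were higher there. Spib had 38.84 to 64.36 CPM at label CD8, against 6.714 to 16.32 CPM at label CD11b. Runx2 had at least 67.75 CPM at label CD8 and at most 48.08 CPM at label CD11b.

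**Figure D3:**
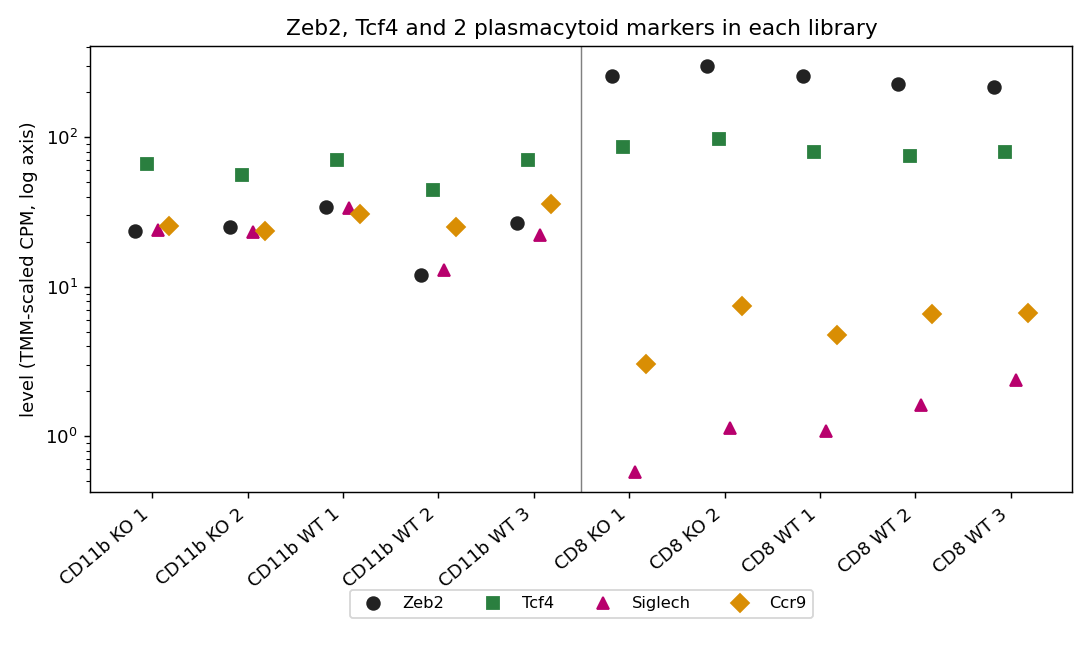
Level of Zeb2, Tcf4, Siglech and Ccr9 in each of the 10 libraries (TMM-scaled CPM, log axis; points of 1 library are set side by side). At label CD11b Zeb2 is at 12.0 to 34.1 CPM and Siglech at 13.1 to 33.6 CPM. At label CD8 Zeb2 is at 218 CPM or above and Siglech stays at or under 2.37 CPM. CPM is not scaled to gene length, so the heights of different genes are not compared. The plasmacytoid markers Spib and Runx2, which were higher at label CD8, are not drawn.

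Zeb2 and Klf4 are also factors of monocytes and macrophages, and markers of those cells were measured beside them. The 8 monocyte markers summed to 102 to 121 CPM at label CD11b and at least 401 CPM in each library labelled CD8, with 3 of 8 lower and 1 higher at label CD11b in KO and 4 of 8 lower and 1 higher in WT. Most of the sum at label CD8 was Csf1r, at 242 to 341 CPM, while Ly6c2 was at 0.824 to 5.23 CPM and Vcan at 0.216 to 1.32 CPM. Ms4a4c had 0.25 to 2.35 CPM at label CD11b and 48.5 to 56.5 CPM at label CD8, Fn1 had 0.833 to 3.95 CPM at label CD11b and 7.58 to 48.7 CPM at label CD8, and Ccr2 had 15.0 to 22.7 CPM at label CD11b and 27.2 to 39.5 CPM at label CD8. The 10 red pulp macrophage markers summed to 148 to 204 CPM at label CD11b and 296 to 509 CPM at label CD8, with 7 of 10 lower and 0 higher at label CD11b in KO and 7 of 10 lower and 1 higher in WT. Their part in the Zeb2 and Klf4 difference was not tested. Markers of NK and T cells summed to at most 6.16 CPM and those of neutrophils to at most 3.67 CPM in any library.

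Zbtb46 and Spi1, which mark or build dendritic cells of both lineages, differed little between the labels. Zbtb46, a zinc finger factor that marks conventional dendritic cells against plasmacytoid cells and monocytes (ENSMUSG00000027583, chr2:181387762-181459426, minus strand), had 147 and 148 CPM in CD11b KO and 149, 157 and 158 CPM in CD11b WT, against 172 and 151 CPM in CD8 KO and 169, 164 and 152 CPM in CD8 WT. Its log2 fold change between labels was −0.13 in KO (95% interval −0.38 to 0.11) and −0.06 in WT (−0.26 to 0.14). Spi1, which encodes the ETS factor PU.1 and is needed for every dendritic cell lineage (ENSMUSG00000002111, chr2:91082390-91115756, plus strand), had 398 and 466 CPM in CD11b KO and 412, 422 and 427 CPM in CD11b WT, against 399 and 359 CPM in CD8 KO and 394, 397 and 399 CPM in CD8 WT. Its log2 fold change was 0.19 in KO (−0.02 to 0.41, adjusted p = 0.219) and 0.08 in WT (−0.09 to 0.26, adjusted p = 0.523). The WT groups of Spi1 did not overlap, the lowest library labelled CD11b having 412 CPM and the highest labelled CD8 399 CPM, and the difference did not pass the test.

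Per kilobase of merged exon length, the order of the factors also changed between the labels. At label CD11b, Id2 ranked first of the 10, with a level of 222 ± 13.4 CPM per kb in CD11b KO (SD, n = 2) and 189 ± 38.5 CPM per kb in CD11b WT (SD, n = 3). At label CD8 Klf4 ranked first, with 235 ± 6.40 CPM per kb in CD8 KO (SD, n = 2) and 288 ± 18.5 CPM per kb in CD8 WT (SD, n = 3), and Id2 ranked 4 of 10 there. Spi1 ranked second in every group, at 160, 156, 141 and 147 CPM per kb in CD11b KO, CD11b WT, CD8 KO and CD8 WT, and Nfil3 ranked 3 of 10 in every group. In CD11b WT the Id2 and Spi1 levels lay within the spread of Id2, so their order there is not resolved. Zeb2 ranked last at label CD11b, at 1.22 CPM per kb in both CD11b KO and CD11b WT, and Tcf4 last at label CD8, at 3.36 and 2.85 CPM per kb in CD8 KO and CD8 WT. Merged exons of Zeb2 (19942 bases) and Tcf4 (27382 bases) hold every annotated transcript, so the per-length levels of these 2 genes are low estimates.

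Between Atg16l1 KO and WT, none of the 10 factors was called at either label. In CD11b KO against CD11b WT 0 of 10 passed the test, and in CD8 KO against CD8 WT 0 of 10, where the background was 0.145% of genes in each. The difference of the genotype effects between the labels was called for 0 of 10 as well, against 0.0206% of genes. At an unadjusted p under 0.05 there was 1 member at label CD11b, 3 at label CD8 and 1 for the difference, against 6.42%, 6.52% and 5.46% of all genes, and DESeq2 and limma-voom also called 0 of 10 in each of the 3 comparisons. KO and WT libraries did not overlap for 1 factor at label CD11b (Zbtb46, 147 and 148 CPM in KO, against 149 to 158 CPM in WT), against 20.5% of all genes, and for 4 at label CD8 (Id2, Nfil3, Klf4 and Tcf4), against 24.0%.

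**Figure D4:**
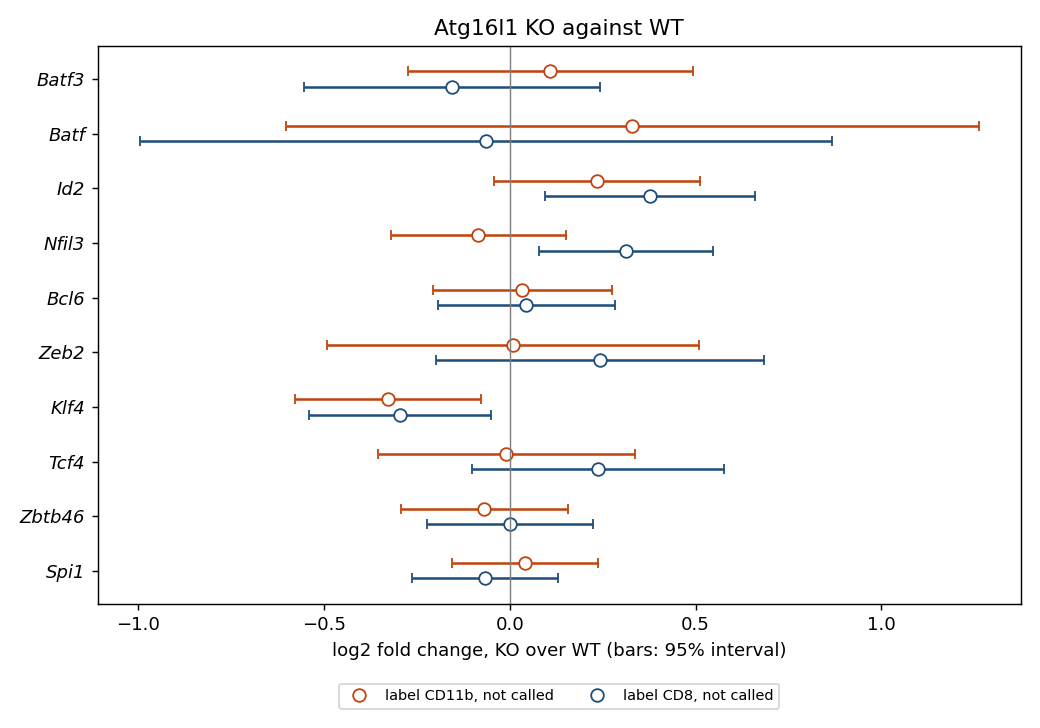
Log2 fold change of KO over WT for each factor at label CD11b (orange) and label CD8 (blue), with 95% intervals; open points are not called. Klf4 lies left of 0 and Id2 right of 0 at both labels, and Batf has the widest intervals.

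Klf4 had the lowest values relative to WT at both labels. At label CD11b its KO libraries had 125 and 149 CPM, against 147 to 207 CPM in WT, with a log2 fold change of −0.33 (95% interval −0.58 to −0.08, adjusted p = 0.626 in the edgeR fit). At label CD8 the KO libraries had 702 and 729 CPM, against 814 to 917 CPM in WT, with no overlap and a log2 fold change of −0.30 (−0.54 to −0.05, adjusted p = 0.635 in the edgeR fit). The effects at the labels differed by −0.03 (−0.38 to 0.31). Averaged over both labels, a contrast added after the data were seen, the effect was −0.31 (−0.49 to −0.14, adjusted p = 0.149), where 0 of 10 factors were called, against 0.289% of all genes, and 2 of 10 had an unadjusted p under 0.05, against 8.43%. It passed the test in 1 of the 10 fits that each left out 1 library (without CD11b WT 2, −0.36, adjusted p = 0.0324), and in the other 9 the adjusted p was at least 0.116.

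Id2 had values of the opposite sign. At label CD11b its KO libraries had 518 and 564 CPM, against 371 to 559 CPM in WT, with a log2 fold change of 0.23 (95% interval −0.04 to 0.51, adjusted p = 0.821). At label CD8 the KO libraries had 154 and 194 CPM, against 126 to 148 CPM in WT, with a log2 fold change of 0.38 (0.09 to 0.66, adjusted p = 0.553 in the edgeR fit). The groups at label CD8 did not overlap, and CD8 KO 2, the library with the high B cell sum, was the higher of the 2 KO libraries. Without CD8 KO 2 the value was 0.20, and over the 19 alternative settings it was 0.20 to 0.54. The part of B cells in the Id2 value was not tested. Averaged over both labels the effect was 0.31 (0.11 to 0.50, adjusted p = 0.287), and it passed the test without CD11b WT 2 (0.39, adjusted p = 0.038) and in none of the other 9 fits that left out a library.

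Nfil3 had the smallest p of the 10 for a difference of the genotype effect between the labels, which was not called. The effect was 0.31 at label CD8 (95% interval 0.08 to 0.55, adjusted p = 0.541 in the edgeR fit), where KO libraries had 159 and 180 CPM, against 131 to 142 CPM in WT. At label CD11b it was −0.09 (−0.32 to 0.15), where KO libraries had 167 and 158 CPM, against 160 to 193 CPM in WT. The test of the difference itself gave −0.40 (−0.73 to −0.07, adjusted p = 0.866 in the edgeR fit), while that of Batf was as large and less certain (0.39, −0.93 to 1.72). Without CD8 KO 2 the effect at label CD8 was 0.23, and over the 19 alternative settings it was 0.23 to 0.40.

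For the other 7 factors the genotype values were close to 0 or wide. Zeb2 had a log2 fold change of 0.01 at label CD11b (95% interval −0.49 to 0.51) and 0.24 at label CD8 (−0.20 to 0.69). Tcf4 had −0.01 at label CD11b (−0.36 to 0.34) and 0.24 at label CD8 (−0.10 to 0.58), where the KO libraries, at 86.5 and 97.3 CPM, lay above all 3 WT libraries. The largest Zeb2 and Tcf4 level among the 10 libraries was in CD8 KO 2 for both. Batf3 had 0.11 (−0.28 to 0.49) and −0.16 (−0.55 to 0.24), and Bcl6 0.03 (−0.21 to 0.27) and 0.04 (−0.19 to 0.28), at labels CD11b and CD8. Zbtb46 had −0.07 (−0.29 to 0.16) and 0.00 (−0.22 to 0.23), and Spi1 0.04 (−0.16 to 0.24) and −0.07 (−0.26 to 0.13). For Bcl6, Zbtb46 and Spi1 the intervals at both labels lie within 0.30 on the log2 scale, so changes past that size are outside their intervals, whereas for Batf (0.33, −0.60 to 1.26 at label CD11b; −0.06, −0.997 to 0.87 at label CD8) a doubling at label CD11b lies within it.

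Other regulators of dendritic cell development, a list of 35 genes chosen with earlier results of these data known, ran mostly with Zeb2 and Klf4 and against Id2. In KO 5 of the 35 tested were higher and 22 lower at label CD11b, with a median log2 fold change of −0.60, beside −0.01 over all genes. In WT 5 were higher and 23 lower, with a median of −0.57, beside 0.00 over all genes. The share of all genes called higher was 10.3% in KO and 13.8% in WT, and the share called lower 12.5% and 15.7%. Irf8, the factor that defines cDC1, had 916 to 1082 CPM at label CD11b, against 165 to 240.2 CPM at label CD8 (log2 fold change 2.30 in KO and 2.40 in WT). Irf4, its cDC2 counterpart, had 30.3 to 43.8 CPM at label CD11b, against 169 to 350.1 CPM at label CD8 (−3.04 in KO and −2.68 in WT). Mycl, a Myc relative found in cDC1, was higher at label CD11b (1.68 in KO and 1.58 in WT), and Cebpb, a factor of monocytes and inflammation, was lower (−2.99 in KO and −4.04 in WT), as was the NF-kappa B subunit Relb (−1.15 in KO and −1.45 in WT). Prdm1, a repressor known from plasma cells, was lower in both (−4.13 in KO and −3.92 in WT). All these values passed the test, with adjusted p at or under 7.08e-08.

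Partners and family members of the 10 factors, 33 of 36 listed genes having passed the filter, showed the same lean. In KO 3 were higher and 16 lower at label CD11b (median log2 fold change −0.51), and in WT 3 were higher and 18 lower (median −0.39). Over all genes tested, 10.3% were called higher and 12.5% lower in KO, and 13.8% and 15.7% in WT. The medians over all genes were −0.01 in KO and 0.00 in WT. Several of the genes with the smallest p belong to the AP-1 family, which holds the Jun proteins that Batf factors pair with and the Fos proteins that compete for them. Fosl2 had 496 to 599 CPM at label CD11b, against 1200 to 1594 CPM at label CD8 (log2 fold change −1.31 in KO and −1.44 in WT). Fosb had 1042 to 1473 CPM at label CD11b, against 2272 to 3408 CPM at label CD8 (−1.19 in both genotypes), and Jun had 147 to 288 CPM, against 542 to 1228 CPM (−1.94 in KO and −2.08 in WT). Jund was lower in both (−0.94 in KO and −1.07 in WT), as was the zinc finger relative of Klf4, Klf13 (−1.29 in KO and −1.50 in WT), and the Bcl6 corepressor Bcor (−1.27 in KO and −1.07 in WT). These values passed the test, with adjusted p at or under 1.04e-05. Of the other AP-1 genes in the list, Fos was also called lower (−0.71 in KO and −0.90 in WT). Junb (−0.28 in KO and −0.29 in WT), Atf3 (−0.05 and 0.13) and Batf2 (1.04 and 1.68) were not called in either genotype.

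**Figure D5:**
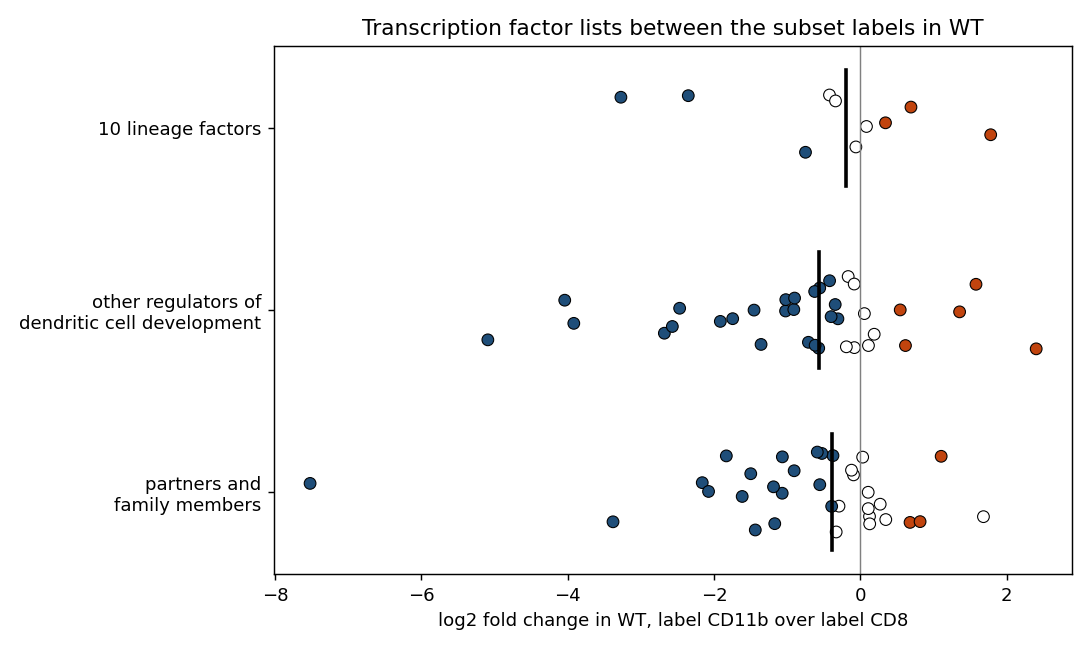
Log2 fold change of label CD11b over label CD8 in WT for the 10 factors, the other regulators and the partners (each point 1 gene; orange called higher, blue called lower, open not called; bar: list median; vertical scatter has no meaning). The medians are −0.20, −0.57 and −0.39; the leftmost point, Id3, had no counts in CD11b WT, so its place on the axis depends on the fit.

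Between the genotypes the same lists held few calls. Of the 35 regulators 0 were called at label CD11b and 1 at label CD8: Irf4, with 350.1 and 309 CPM in CD8 KO, against 227, 226 and 169 CPM in CD8 WT (log2 fold change 0.67, adjusted p = 0.0269). The Irf4 call was lost without CD8 KO 1 (0.58, adjusted p = 0.231), without CD8 KO 2 (0.76, adjusted p = 0.108) or without CD8 WT 3 (0.54, adjusted p = 0.168). Markers of other cells ran beside it. The B cell sum was 1019 and 2746 CPM in CD8 KO, against 1134, 744 and 565 CPM in CD8 WT. Of the B cell markers 10 of 10 were positive and 0 called (median log2 fold change 1.35), with 10 at an unadjusted p under 0.05. The red pulp macrophage sum was 485 and 509 CPM in CD8 KO, against 400, 389 and 296 CPM in CD8 WT. Of the macrophage markers 9 of 10 were positive and 0 called (median 0.59), with 5 at an unadjusted p under 0.05. Over all genes that share was 6.52%. The part of these markers in the Irf4 value was not tested. At label CD11b Irf4 had 36.3 and 43.8 CPM in KO, against 34.4, 30.3 and 32.5 CPM in WT (0.31, adjusted p = 0.754), and the difference between the labels was −0.36 (adjusted p = 0.937). Cebpb at label CD11b had 12.7 and 15.8 CPM in KO, against 6.91, 5.05 and 11.3 CPM in WT, with no overlap (0.90, adjusted p = 0.244). Of the 33 partners 0 were called at either label, with 5 and 6 at an unadjusted p under 0.05 at labels CD11b and CD8, beside 0.145% of all genes called at each label and 6.42% and 6.52% at an unadjusted p under 0.05. At label CD11b the partners with the smallest p included Fosb (−0.36, adjusted p = 0.328), Atf3 (−0.39), Junb (−0.28) and Fosl2 (−0.18), and at label CD8 Fosl2 (−0.30, adjusted p = 0.267), Fosb (−0.35), Ets2 (0.61), Fos (−0.57) and Junb (−0.29). The partner list as a whole was balanced in sign, with 17 positive and 16 negative values at label CD11b and 16 positive and 17 negative at label CD8, and the AP-1 member Batf2 had positive uncalled values at both, with 95% intervals of −1.02 to 3.81 at label CD11b and −0.54 to 4.63 at label CD8. Averaged over both labels, the contrast added after the data were seen, Irf4 passed the test at 0.49 (adjusted p = 0.0206) and lost the call without CD11b KO 2 (adjusted p = 0.163), CD11b WT 3 (0.0539), CD8 KO 1 (0.106), CD8 KO 2 (0.0543) or CD8 WT 3 (0.0503), with log2 fold changes of 0.42 to 0.54. In the same contrast Fosb passed the test at −0.36 (adjusted p = 0.0221), with 1066 and 1042 CPM in CD11b KO and 2544 and 2272 CPM in CD8 KO, against 1148 to 1473 CPM in CD11b WT and 2817 to 3408 CPM in CD8 WT. The Fosb call was lost in 5 of the 10 fits that each left out 1 library: without CD11b KO 1 (adjusted p = 0.0787), CD11b KO 2 (0.106), CD11b WT 3 (0.0766), CD8 KO 2 (0.235) or CD8 WT 1 (0.0547), with log2 fold changes of −0.36 to −0.31.

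Genes with patterns most like those of the 3 members past a 2-fold difference in WT were found by the root mean square difference of centred log2 CPM over the 10 libraries, among 8729 genes. Closest to Id2 were Arap1 (0.12), Pfkp (0.159), a glycolytic enzyme gene, and C2cd2l (0.168). Arap1 had 350 and 324 CPM on average in CD11b KO and CD11b WT, against 109 and 87.3 CPM in CD8 KO and CD8 WT. The match used KO and WT libraries alike, so a shared direction between genotypes is part of how these genes were chosen. Closest to Zeb2 were Prdm1 (0.238), Spns3 (0.263) and Cadm3 (0.263). Prdm1 was low at label CD11b, at 0.905 to 2.05 CPM (12 to 27 counts per library), against 18.9 to 29.2 CPM at label CD8. Closest to Klf4 were Ppp1r14a (0.139), Rras2 (0.143) and Arhgap6 (0.17), and Ppp1r14a averaged 57.0 CPM in CD8 KO and 71.0 CPM in CD8 WT. The distances for Zeb2 were larger than those for Id2 and Klf4, and no gene was closer to it than 0.238.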

How the data were processed

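RNA was sequenced from 10 libraries of sorted mouse spleen dendritic cells. The aligner was STAR 2.5.0a and the genome build GRCm38, per the submitters' processing notes. The authors deposited raw counts per gene, not normalized, without regard to strand and for each strand, and the column for the strand with 13.5 to 17.7 times more counts was used. The annotation release is not given in the sources used here; 53274 of the 53379 identifiers were named from the GENCODE annotation of GRCm38. Reads that mapped to several places (21.7% to 25.5%) and reads in no gene (33.1% to 41.4% of reads) entered no value. Depth was 9467704 to 13768884 gene counts per library.

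A quasi-likelihood model of 4 group means was fitted in edgeR 4.0.16 (R 4.3.3) to all 10 libraries with TMM scaling and filterByExpr, which left 14528 genes. The fit pools the spread over groups (6 residual and 16.1 prior degrees of freedom), since KO groups have 2 libraries. P-values were two-sided, adjusted by Benjamini-Hochberg within a comparison over all genes tested and called under 0.05. Mice were individual, so p-values measure the spread between mice within a group. Intervals are 95% intervals of the fitted log2 fold change. The comparisons were KO against WT within a label, the difference of these effects, and label CD11b against label CD8 within a genotype. The difference of effects shares its libraries with the other comparisons, as do the KO and WT comparisons at a label. The contrast averaged over both labels treats libraries of different labels as independent. If same-numbered libraries came from the same mouse, its p-values could be too small, and no replicate block was run for it. The model was checked on simulated counts.

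Members were named whatever their values. From each gene list, at most 5 genes with the smallest p in a comparison were named; Id3, one of these at label CD11b, is given no fold because CD11b WT had no counts. Some genes outside the rule, such as single markers, were named after their values were seen. Members and lists were chosen with earlier results of these data known. Promoter sequences are RefSeq's; 8 of the 10 members were searched, and Spi1 and Tcf4 were not. Of several windows for a gene (4 for Zeb2) the one nearest to the annotated start was used. Alternatives were RLE scaling, other filters, unstranded counts, DESeq2 1.42.0, limma-voom (limma 3.58.1), fits to the libraries compared, each library left out, and replicate blocks. Samples with the same number were not treated as pairs.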

Additional observations from a re-analysis of the deposited data

How the results depend on the processing

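Over 19 settings per comparison at most, 942 of 950 recomputed member values kept their side of the threshold and no called value changed sign; 48 values that were not called changed sign, none of them over 0.39 in size as reported. All 570 genotype values stayed uncalled, and the 8 changes of call concern Nfil3 and Tcf4 between the labels. Those for Nfil3 in WT were without CD11b WT 1, and without both CD11b WT 1 and CD8 KO 2 (0.26, adjusted p = 0.0858). Without both libraries, a pair chosen after seeing the data, Tcf4 was also called in WT (−0.44, adjusted p = 0.0489) and not in KO (−0.49, adjusted p = 0.134). Members called numbered 5 to 6 in KO and 6 in WT with each library left out, and 0 in each genotype comparison. Over all genes, the counts of 21, 21 and 3 called for KO against WT at label CD11b, at label CD8 and for their difference became 71, 142 and 41 with no filter (31563 genes) and 42, 59 and 12 with DESeq2. At label CD8 limma-voom called 63 and the fit to the libraries compared 78. Unstranded counts gave 5 for the difference. The contrast averaged over both labels called 42. Without both libraries named above, label CD11b had 13. With 1 library left out the counts were 14 to 29, 7 to 53 and 3 to 8; the 53 came without CD8 KO 1 and the 7 without CD8 KO 2. Same-numbered libraries of a genotype had deviations correlated at 0.0182 to 0.0491 across labels, under the 0.1 needed to call them pairs. Within a genotype each library correlated best across labels with its own number. With 2 KO libraries per label the KO values (0.0409) are equal by construction. CD11b WT 1 and CD11b KO 1, which differ in genotype and cannot be 1 mouse, reached 0.0594. The correlations therefore do not show whether mice were shared. A block on the replicate number gave 8 calls for the difference and a block on the number within a genotype 28, with 0 members called under either; between the labels, where the block on the number within a genotype was run, members called became 7 in WT and stayed at 6 in KO. In the fits that left 1 KO library, it was assumed to vary like the other groups. A fit to the libraries compared was not run for the difference, which uses all 10. Batf had the fewest counts, 43 to 85 per library, and the widest intervals; how far depth and how far the spread between libraries set them was not tested.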
